A study of Mus musculus with 44 samples.

Results

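In granulosa cells of *Smad2*HA/+ mice, 1833 of 34355 regions with peaks of the HA antibody, directed at the tag on SMAD2, overlapped no peak of the SMAD2 or SMAD3 antibody in the same cells. They were chosen by their peak calls. An HA region is a place where HA peaks of both replicates of a treatment overlap by at least 1 bp, with regions of the vehicle and GDF9 cultures merged, and it was kept when none of 8 lists of native peaks (SMAD2 and SMAD3 antibodies, vehicle and GDF9, replicates 1 and 2) reached into it. These HA-only regions made up 5.34% of HA regions. In comparison, 26873 HA regions met native peaks of both SMAD2 and SMAD3, 4400 of SMAD3 alone, 1249 of SMAD2 alone, and 2487 met a peak in exactly 1 of the 8 lists. Because the HA and native peak calls selected the members, their HA signal and their lack of native peaks are given as a description.

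SMAD2 and SMAD3 are the intracellular effectors of the activin, TGF-beta and GDF9 branch of the TGF-beta family. After the receptors phosphorylate them, they join SMAD4, enter the nucleus and bind short DNA sequences, mostly together with other transcription factors such as AP-1 (dimers of FOS and JUN proteins), which hold much of the sequence specificity. H3K27ac is an acetylation of histone H3 that marks active promoters and enhancers. In the ovary, GDF9 from the oocyte acts through SMAD2/3 on granulosa cells, the somatic cells around the oocyte.

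The cells were primary granulosa cells of gonadotropin-primed female mice aged 3 to 4 weeks on a mixed C57BL/6J and 129S5/SvEvBrd background, cultured and then given mouse GDF9 or vehicle for 4 h. The *Smad2*HA/+ mice carry the HA tag on 1 *Smad2* allele, at its C-terminus, and the other allele is untagged. The *Smad3*PA/PA mice carry a PA tag on both *Smad3* alleles and served here as the other line. DNA occupancy was measured by CUT&RUN, in which a nuclease tethered to an antibody releases the DNA around its target, with 2 replicates per line, antibody and treatment and with cells pooled from several mice. Peaks of the 8 IgG libraries were not analysed here. The HA antibody was used in the *Smad2*HA/+ line alone, and HA peaks in cells without the tag were not analysed here. RNA was sequenced from the *Smad3*PA/PA line, 2 replicates per treatment.

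The HA lists held 60291 to 64509 peaks, the native lists of the same cells 59278 to 74376. Among the lists of the other line, that of SMAD2 in vehicle replicate 2 was short, with 23082 peaks against 78699 to 81283 in the other 3. The RNA libraries held 8827825 to 11416005 reads in genes. Of 9 granulosa markers, 7 had at least 10 normalized counts in every RNA library, while *Amh* and *Cyp19a1* had at most 2.9. Of the 4 markers of surface epithelium 3 were at 472 or more in every library (*Krt8*, *Krt18*, *Upk3b*), while *Epcam* was at 3.87 or less. Of the 4 theca markers, *Cyp17a1* and *Insl3* were at or near 0, and *Star* (7618 to 8073) and *Cyp11a1* (44250 to 46036) were high. All 4 stroma markers had at least 10 normalized counts in every library, among them *Col1a1* (1307 to 1357) and *Col3a1* (1035 to 1083). So did 2 of 4 macrophage markers, 1 of 4 endothelial markers and 1 of 4 oocyte markers. The part of other cell types in the results was not tested, and the *Smad2*HA/+ cells have no RNA here.

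HA-only regions with the tallest peaks in all 4 HA lists, or in both lists of a treatment, are shown first, because a short sequence recurred at their summits. Each run is the plus strand of the mm10 build, from 100 bases before to 100 bases after the tallest HA signal (the summit), in lower case with the letters TGANTCA (N is any base) in capitals. These 7 bases, a palindrome apart from the middle base, take in TGACTCA, the core that AP-1 dimers bind, and its reverse complement TGAGTCA. They also take in TGAATCA and TGATTCA. The first 6 runs hold the letters, as TGACTCA or TGAGTCA, and the last does not.
Hagh, chr17:24855973-24856173: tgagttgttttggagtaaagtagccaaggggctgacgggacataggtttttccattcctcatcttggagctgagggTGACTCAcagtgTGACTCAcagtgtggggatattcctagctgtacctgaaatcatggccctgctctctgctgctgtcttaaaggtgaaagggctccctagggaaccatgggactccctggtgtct
Zfp36l2, chr17:84148933-84149133: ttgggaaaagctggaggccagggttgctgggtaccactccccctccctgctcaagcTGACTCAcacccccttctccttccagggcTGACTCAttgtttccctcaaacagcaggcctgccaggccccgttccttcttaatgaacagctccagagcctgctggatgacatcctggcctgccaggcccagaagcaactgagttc
Camk1g, chr1:193967307-193967507: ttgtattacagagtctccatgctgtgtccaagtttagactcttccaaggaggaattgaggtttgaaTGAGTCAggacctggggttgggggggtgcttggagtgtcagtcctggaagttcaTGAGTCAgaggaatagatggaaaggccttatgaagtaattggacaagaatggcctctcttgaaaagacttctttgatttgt
Vgll4, chr6:114988692-114988892: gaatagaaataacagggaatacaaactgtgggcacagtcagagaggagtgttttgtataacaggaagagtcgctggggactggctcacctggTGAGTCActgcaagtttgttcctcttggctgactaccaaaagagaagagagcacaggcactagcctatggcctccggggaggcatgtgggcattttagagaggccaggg
2310034G01Rik, chr19:46352251-46352451: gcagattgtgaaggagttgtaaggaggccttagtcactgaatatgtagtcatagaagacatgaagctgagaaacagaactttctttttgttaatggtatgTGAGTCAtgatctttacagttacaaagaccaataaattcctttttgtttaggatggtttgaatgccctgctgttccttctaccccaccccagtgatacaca
Ankrd50, chr3:38289286-38289486: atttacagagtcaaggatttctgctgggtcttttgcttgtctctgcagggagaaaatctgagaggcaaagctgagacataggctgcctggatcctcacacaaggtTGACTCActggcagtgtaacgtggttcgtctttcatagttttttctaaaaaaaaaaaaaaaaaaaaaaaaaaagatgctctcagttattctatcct
Mcmbp, chr7:128724867-128725067: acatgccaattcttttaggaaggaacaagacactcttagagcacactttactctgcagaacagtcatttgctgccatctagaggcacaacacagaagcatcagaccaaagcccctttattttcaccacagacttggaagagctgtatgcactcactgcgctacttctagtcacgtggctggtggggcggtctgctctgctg

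Each region carries the name of the coding gene with the nearest start site, which need not be its target. The *Hagh* window lay 2128 bp from that start site and held the letters 2 times. The *Zfp36l2* and *Camk1g* windows, 38914 and 597109 bp from their start sites and intergenic, also held them 2 times each. In the *Vgll4* window they began 8 bp before the summit, in the *Ankrd50* window 5 bp after it, and in the *2310034G01Rik* window at the summit itself. Of the 16 regions named by rank of peak height, which are described next, 9 held these letters within 100 bp of the summit.

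HA-only regions were weak and mostly of a single treatment. Peaks in both vehicle replicates but not in both GDF9 replicates defined 984 of them (53.7%), the reverse 784 (42.8%), and 65 (3.55%) had peaks in both replicates of both treatments. Among the 32522 other HA regions, 58.8% belonged to both treatments. HA regions with a peak in exactly 1 native list resembled the HA-only regions in this. Of them, 54.2% were of vehicle alone, 37.6% of GDF9 alone and 8.2% of both treatments. A peak was present in all 4 HA lists for 72 HA-only regions (3.93%), in 3 lists for 470 (25.6%) and in 2 lists for 1291 (70.4%), compared with 59.5%, 28.7% and 11.8% of the other HA regions. The 1291 divided into 682 with vehicle peaks and no GDF9 peak and 609 with GDF9 peaks and no vehicle peak.

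Peak height, the maximum spike-in scaled coverage, was ranked within each list as a percentile, with equal heights sharing their mean rank. HA-only regions had a median percentile of 37.3 and 35.7 in the vehicle libraries and 29.3 and 29.7 in the GDF9 libraries (replicates 1 and 2). For the other HA regions the medians were 75.9, 74.6, 78.1 and 75.2. At most 5 HA-only regions lay above the 90th percentile in any list, whereas 5957 to 6250 of the other regions did. Regions with a peak in exactly 1 native list stood between, at medians of 47.6 to 50.7. The HA-only regions were nearly as wide as the others, with a median of 2257 against 2567 bp.

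**Figure D1:**
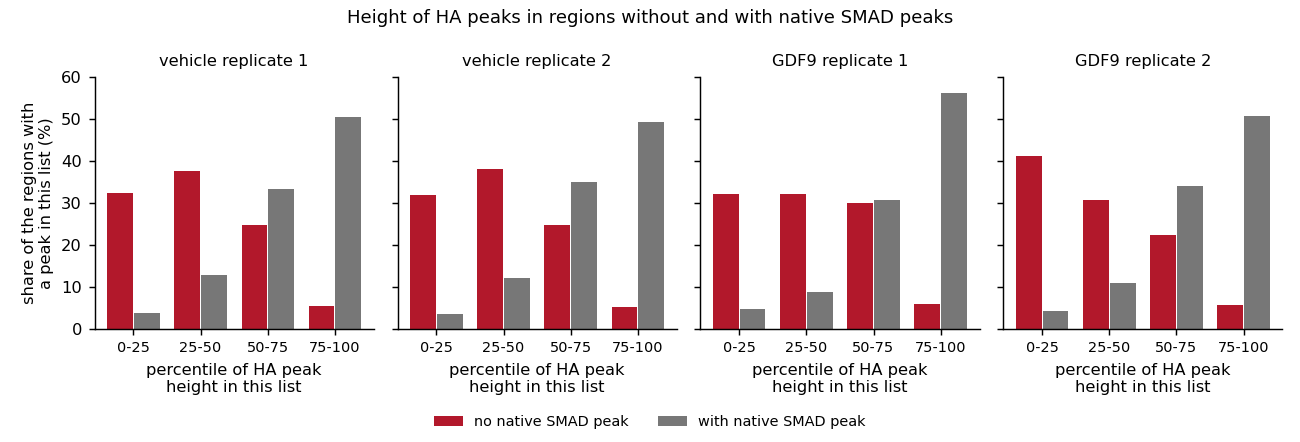
HA peak height by library. The x axis gives 4 steps of the percentile of peak height within that library's whole peak list and the y axis the share (%) of the regions with a peak in that library, red for HA regions without and grey for those with a native SMAD peak. In each of the 4 libraries 5.25 to 5.83% of the red regions and 49.4 to 56.1% of the grey regions fall in the step from 75 to 100.

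By the rank of their lowest percentile over the 4 lists, the region in an intron 9264 bp from the start of *Pask*, which encodes a PAS domain kinase, came first. Its maximum signal was 1.56 and 2.0 in the vehicle libraries and 1.41 and 2.22 in the GDF9 libraries, at percentiles from 88.1 to 94.2. An intronic region 10109 bp from the start of *Mcmbp*, the gene of a binding protein of the MCM helicase, had 1.97 and 1.83 against 1.26 and 3.06, with GDF9 replicate 1 below and GDF9 replicate 2 above both vehicle libraries. In the region near *Hagh*, which encodes a glyoxalase, the values were 1.36 and 0.931 against 1.31 and 2.22, so the treatments overlapped. The intergenic region near *Vgll4*, whose product is a cofactor of TEAD factors, had 1.32 and 1.36 against 1.02 and 1.42, again with overlap. The region at *Zfp36l2*, the gene of an RNA-binding protein that speeds mRNA decay, had 1.32 and 1.47 with vehicle and 1.7 and 2.61 with GDF9, both GDF9 values being higher. The other 5 of the 10 regions lay nearest to *Spag9*, *Camk1g*, *Acta1*, *Cryzl1* and *Cc2d2b*, with lowest percentiles from 75.9 to 84.8.

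Regions with peaks in the vehicle lists alone were led by an intronic region 6286 bp from the start of *Cul4a*, a scaffold of ubiquitin ligases, with a maximum signal of 1.11 and 1.04 and no peak with GDF9. Next came a region at an exon 20186 bp from the start of *Icos* (1.03 and 0.931) and a region in a promoter of *2310034G01Rik* (0.945 and 1.0). With peaks in the GDF9 lists alone, the highest were an intergenic region 166171 bp from *Ankrd50* (0.874 and 1.51), a promoter region of *Morn3* (0.728 and 1.2) and an intergenic region 46395 bp from *Trh* (0.728 and 1.11). A missing peak means that the signal did not pass the authors' peak caller there, and the signal below that level was not used here.

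GDF9 and vehicle were compared in regions with a peak in all 4 HA lists, where no treatment lacks a value. HA peaks chose the members, so the values of HA-only regions in this fit over all HA regions are a description. Of the 1833 HA-only regions 72 qualified, among 19431 HA regions tested with limma on log2 of the maximum signal. None of the 72 was called at an adjusted p under 0.05, and none of all tested regions was (0.0%). At an unadjusted p under 0.05 there were 6 of the 72 and 2.54% of all regions. The median log2 fold change was 0.37 in the 72 and 0.25 in all. GDF9 replicate 2 stood apart in scale. Its median log2 maximum signal over the tested regions was 0.79 against 0.16 in GDF9 replicate 1 and 0.30 and 0.15 in the vehicle libraries. With each library centred on its median, the median of the 72 was 0.12 and again no region was called. Without GDF9 replicate 1, 9 of the 72 and 4390 of all regions were called, and without GDF9 replicate 2, 0 of the 72 and 95 of all. The log2 fold changes of the 72 ranged from −0.47 to 1.64.

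The median distance from an HA-only region to the nearest native peak was 2144 bp, with 289 (15.8%) within 500 bp and 379 (20.7%) over 5 kb away. Distances from other places in the genome were not computed, so whether HA-only regions lay closer than those was not tested. Just inside the rule, regions near *Insr*, *Katna1* and *Cyb5r3* lay 2, 4 and 7 bp from a native peak. Just outside it, regions near *Sptlc2*, *Colca2* and *Rpl15* shared 2, 3 and 4 bases with a native peak. Of the 2487 regions with a peak in exactly 1 native list, 292 were covered by it over fewer than 500 bases, and the median cover was 1134 bases. When a native region had to have peaks in both replicates of a treatment, 7825 HA regions (22.8%) lacked one.

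HA-only regions lay away from promoters. Within 3 kb of the start of a coding gene were 216 (11.8%), compared with 36.7% of the other HA regions, 14.4% of those with a peak in 1 native list and 60.6% of those with peaks in all 8. A further 751 (41.0%) fell in introns, 794 (43.3%) between genes and 72 (3.93%) on exons. The median distance to a coding start was 22335 bp, against 8017 bp for the other HA regions. On chromosome X 10.2% of HA regions were HA-only (111 of 1092), while chromosomes 1 to 19 ranged from 3.12% (chromosome 13) to 6.53% (chromosome 12). None of 46 HA regions on chromosome Y was HA-only. As the mice were female, peaks called on chromosome Y are not read as occupancy there, and they stay in the count of all HA regions.

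H3K27ac, which the choice did not use, was read in windows of 100 bp to either side of the HA summits. In *Smad2*HA/+ cells, 38.8 and 37.6% of HA-only windows lay under an H3K27ac peak in the vehicle libraries and 37.0 and 37.9% in the GDF9 libraries, whereas 68.1 to 72.7% of the other HA windows did. These H3K27ac peaks are broad, with a median width of 18565 to 29257 bp, and windows 10 kb to either side of the same HA-only summits lay under them at 33.9 to 36.7%. The 10 kb level lay under the lower 95% Wilson bound of the summit share in both GDF9 libraries (34.9 and 35.7%) and within the interval in both vehicle libraries (36.6 to 41.1% and 35.4 to 39.8%). Around the other HA regions the 10 kb level was 50.8 to 54.2%, well under the share at their summits. Such intervals, here and below, cover counting error only, treat the regions as independent and take the 10 kb level as fixed.

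In the other line, where H3K27ac peaks are narrower (median 2940 to 3288 bp), 12.1 and 13.2% of HA-only windows lay under a peak with vehicle and 10.6 and 11.1% with GDF9. The 10 kb levels were 9.68, 10.8, 9.0 and 8.87%, each under the lower Wilson bound of its share (10.7, 11.7, 9.31 and 9.77%), and the share for the other HA regions was 55.3 to 57.7%. The mean difference between GDF9 and vehicle was −1.77 percentage points (exact permutation test over libraries, two-sided, n = 2 each, p = 0.333, the smallest this design allows). In *Smad2*HA/+ cells it was −0.764 points (exact permutation p = 0.667). With 2 libraries against 2 no difference can pass 0.05. In all 4 H3K27ac lists of their own line 548 HA-only windows were covered (29.9%), and in none of them 990 (54.0%).

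HA-only regions lay at the low end of a series of steps. From 0 to 8 native lists with a peak, the mean share under H3K27ac rose from 37.8 to 83.2% in *Smad2*HA/+ cells and from 11.8 to 77.5% in *Smad3*PA/PA cells, each step higher than the one before. The promoter share rose from 11.8 to 60.6% and the GC share of the window from 42.7 to 54.8%. Peak height rose along the same steps, from a median best percentile of 42.4 to 91.9, so the shares were also compared within 4 classes of best percentile with about equal numbers of HA regions, chosen after the values were seen. In the lowest class (up to 63.3), which held 1495 of the HA-only regions (81.6%), 35.8% lay under H3K27ac of their own line against 58.9% of 7275 other regions, and 10.5 against 38.6% in the other line. In the second class (up to 78.6) the shares were 46.1 against 67.9% and 16.4 against 51.3%. In the next class (up to 89.8, 79 HA-only regions) they were 49.4 against 72.5% and 20.6 against 58.7%. The top class held 8 HA-only regions. Heights within a class were not matched, and the lowest class was wide, so the part of height in these differences was not tested.

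**Figure D2:**
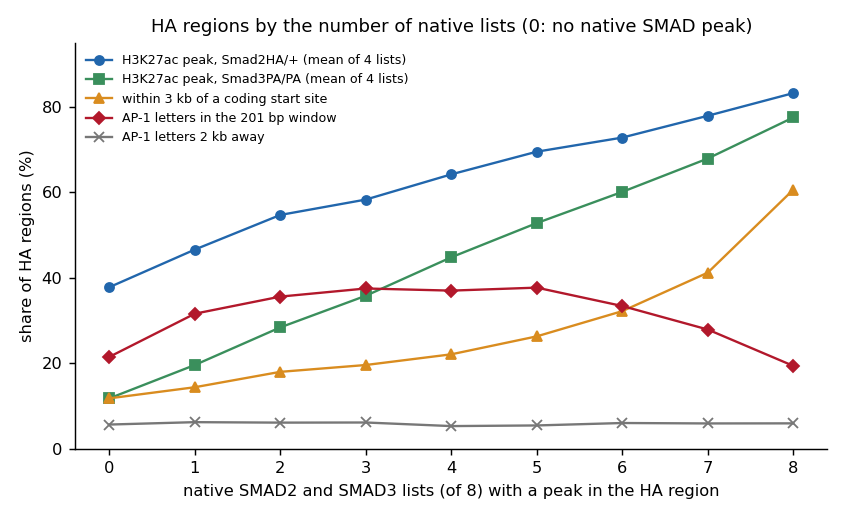
Properties of HA regions by the number of native SMAD2 and SMAD3 lists (0 to 8, x axis) that hold a peak there, as shares of regions in % (y axis). Points at 0 are the HA-only regions. H3K27ac and promoter shares climb throughout, while AP-1 letters reach 37.7% at 5 lists and lie at 21.5% at 0 and 19.4% at 8, with 5.31 to 6.23% 2 kb away.

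Few HA-only windows met a SMAD peak of the other line. Under SMAD2 peaks of *Smad3*PA/PA cells lay 2.73 and 0.436% of them with vehicle and 2.78 and 3.44% with GDF9, the low value being that of the short list, and 10 kb away 2.48, 0.6, 2.24 and 2.1% did. In GDF9 replicate 2 the lower Wilson bound, 2.7%, lay above the 10 kb level, and in the other 3 SMAD2 lists the level lay within the interval. For PA-tagged SMAD3 the shares were 3.0 and 1.8% with vehicle and 2.02 and 3.0% with GDF9, against 1.99, 1.85, 1.66 and 2.67% 10 kb away. In vehicle replicate 1 the lower bound, 2.31%, lay above the 10 kb level, and in the other 3 PA lists the level lay within the interval. SMAD4, the partner shared by all SMAD complexes, had the highest shares, 7.26 and 5.24% with vehicle and 6.66 and 4.36% with GDF9, and each was above its 10 kb level of 4.53, 3.57, 4.28 and 2.67%. The lower Wilson bounds of the 4 SMAD4 shares (6.16, 4.31, 5.6 and 3.52%) also lay above those levels. Other HA windows met SMAD4 peaks at 16.1 to 23.0%, SMAD2 at 12.5 to 14.8% outside the short list, and PA at 3.15 to 4.57%. Between GDF9 and vehicle the shares of HA-only windows differed by −0.736 points for SMAD4 (exact permutation p = 0.667), 0.109 for PA (p = 1.0) and 1.53 for SMAD2 (p = 0.333, n = 2 each), and without the short list the vehicle value for SMAD2 was 2.73%.

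Over the 12 SMAD lists of the other line, 594 HA-only windows (32.4%) met at least 1 peak, 144 (7.86%) at least 2 and 28 (1.53%) at least 3. A mean of 0.427 lists per window compares with 0.307 at 10 kb. For the other HA regions the mean was 1.39 lists against 0.35 at 10 kb.

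**Figure D3:**
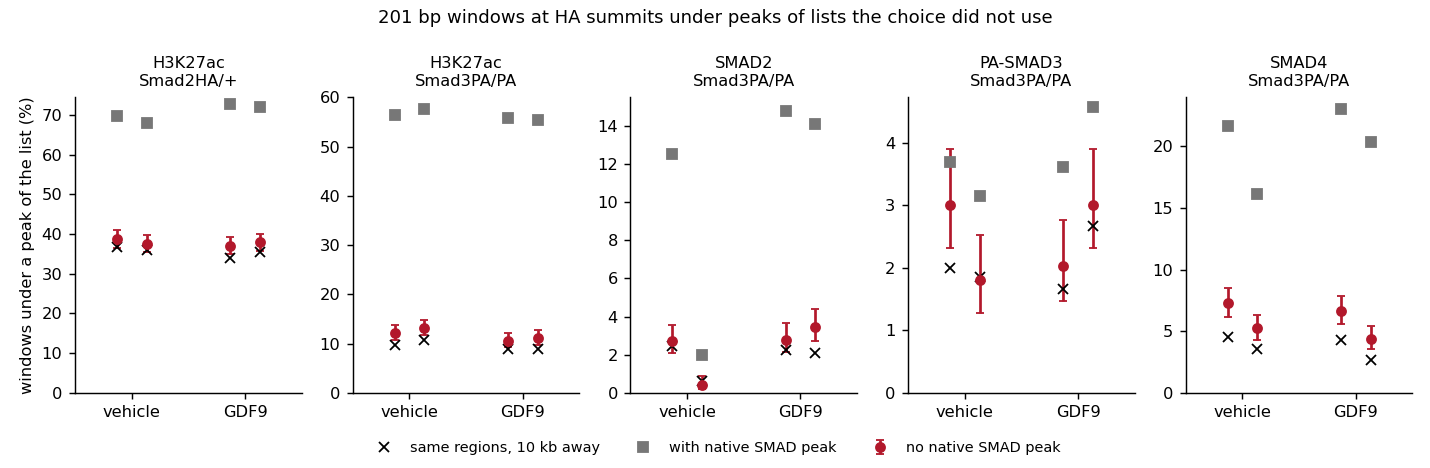
Share (%, y axis) of windows at HA summits under peaks of each of 20 lists that the choice did not use, by treatment (x axis) with 2 points per treatment for the replicates. Red circles are HA-only regions with Wilson 95% intervals, crosses the same regions 10 kb away and grey squares the other HA regions, and in every list the circle lies under the square.

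Sequence at the HA-only summits was compared with windows 2 kb to either side and with the other HA regions, as a description. Base composition did not mark them. The GC share was 42.7% at the summit and 42.7% 2 kb away, and the observed over expected ratio of CpG was 0.187 and 0.182. The other HA regions had 49.7 against 44.1% GC and a CpG ratio of 0.36 against 0.204. Those with a peak in exactly 1 native list were closer to the HA-only regions, with 43.8 against 43.2% GC and a CpG ratio of 0.193 against 0.187. Soft-masked, that is repeat, bases made up 24.2% of HA-only windows and 29.5% of those 2 kb away.

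AP-1 letters were enriched at the summits. TGANTCA, which reads the same on both strands apart from its middle base, occurred in 394 HA-only windows (21.5%, Wilson 95% interval 19.7 to 23.4%) and in 5.67% of windows 2 kb away. It occurred in 29.7% of the other HA windows, in 31.6% of those with a peak in 1 native list and in 19.4% of those with all 8. Of 32851 RefSeq promoter sequences (300 bases, GRCm38.p6), 5.57% held it. For this share and the promoter shares given below, each promoter sequence was cut to the length of the HA windows before the search. In steps of 50 bp a match began in 8.89 and 8.67% of HA-only regions in the steps before and after the summit, and in 3.76% in the next step on either side. Among 8098 words of 7 bases counted on both strands, TGACTCA (reverse complement TGAGTCA) had the greatest excess at HA-only summits, 16.6 against 2.89% 2 kb away. The word GAGTCAC followed at 8.29 against 2.24% and then ATGACTC at 7.86 against 2.15%, and both share 6 bases in a row with TGACTCA or its reverse complement. TGAATCA (reverse complement TGATTCA), which TGANTCA also covers, was in 6.22 against 2.89%.

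Other motifs were less common. CAAGGTCA, the site of the NR5A receptors SF-1 and LRH-1 that drive steroid synthesis genes in granulosa cells, occurred on either strand in 58 HA-only windows (3.17%, 2.46 to 4.07%) and in 1.2% of windows 2 kb away, compared with 1.0% of promoter sequences. GGAATG, the core of TEAD sites, occurred in 13.7 against 9.87% (10.1% of promoters), and the cAMP response element TGACGTCA in 8 windows (0.437 against 0.0273%, and 1.52% of promoters). GTCT, the core of SMAD sites, occurred in 79.0% of HA-only windows and in 80.0% 2 kb away, and in 75.7% of promoters. GGCGC, a GC-rich SMAD element, occurred in 3.77 against 4.04% (29.6% of promoters), and the palindrome GTCTAGAC in 0 of 1832 windows against 0.218% (0.107% of promoters). GTCT is short and lay in most windows of any set, and a missing match says only that these letters are not in the window.

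**Figure D4:**
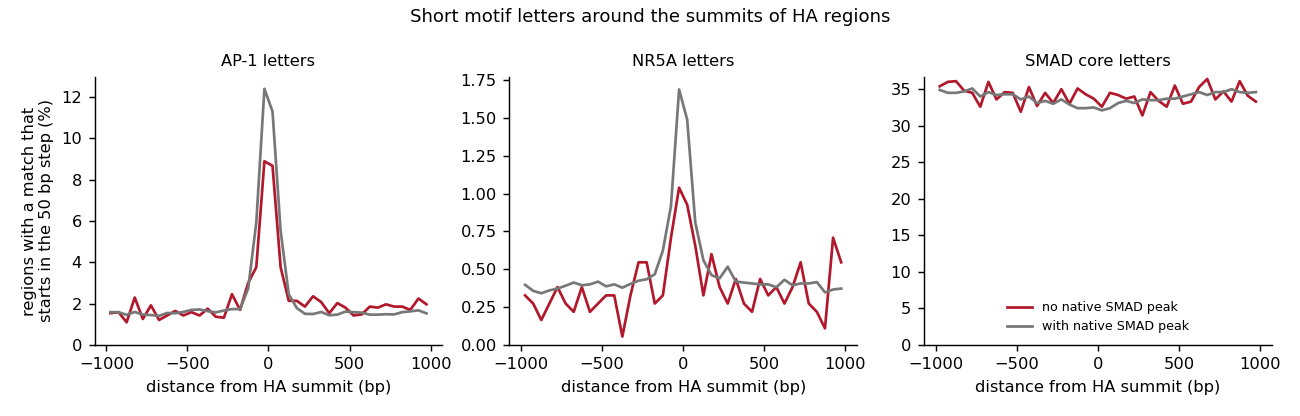
Share (%, y axis) of regions with a match that begins in each step of 50 bp, against the distance from the HA summit (bp, x axis), red for HA-only and grey for the other HA regions. AP-1 letters peak at the summit in both sets (8.89% in red), NR5A letters peak at 1.04% in red, and SMAD core letters are flat.

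HA-only regions were then divided, after their values were seen, by how firmly the HA peak was found. AP-1 letters lay in 16.1% of windows (interval 14.2 to 18.2%) with peaks in 2 HA lists, in 31.7% (27.7 to 36.0%) with 3 and in 51.4% (40.1 to 62.6%) with all 4, while the levels 2 kb away were 6.08, 5.0 and 2.78%. H3K27ac of the own line covered 33.2, 48.0 and 53.8% of them and that of the other line 8.4, 18.7 and 26.7%, against 10 kb levels of 31.6, 44.6 and 47.0% in the own line and 8.77, 11.7 and 10.2% in the other. In the own line the level of the surroundings thus rose as well. By class of best HA percentile, the AP-1 share of HA-only regions was 14.9% in the lowest class, 48.4% in the second and 59.5% in the next, and that of the other HA regions 19.3%, 31.3% and 36.3%. It was lower in HA-only regions in the lowest class and higher in the following 2, with heights within a class not matched. Regions with peaks in both replicates of vehicle alone, some of them with a peak in 1 GDF9 library, held the letters in 22.8% (20.3 to 25.5%). Those with peaks in both replicates of GDF9 alone, likewise defined, held them in 17.6% (15.1 to 20.4%), and those with peaks in both replicates of both treatments in 49.2% (37.5 to 61.1%).

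The AP-1 share changed little with place. It was 22.7% at promoters, 22.1% in introns, 20.4% between genes and 23.6% on exons. Regions within 500 bp of a native peak had 22.1% and those over 5 kb away 23.7%. Where most of the window was soft-masked the share was 8.44% (5.83 to 12.1%, n = 308), and it was 24.1% elsewhere. On chromosome X it was 13.5% (8.36 to 21.1%, n = 111), and there 11.9% of HA-only windows lay under H3K27ac of their own line.

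**Figure D5:**
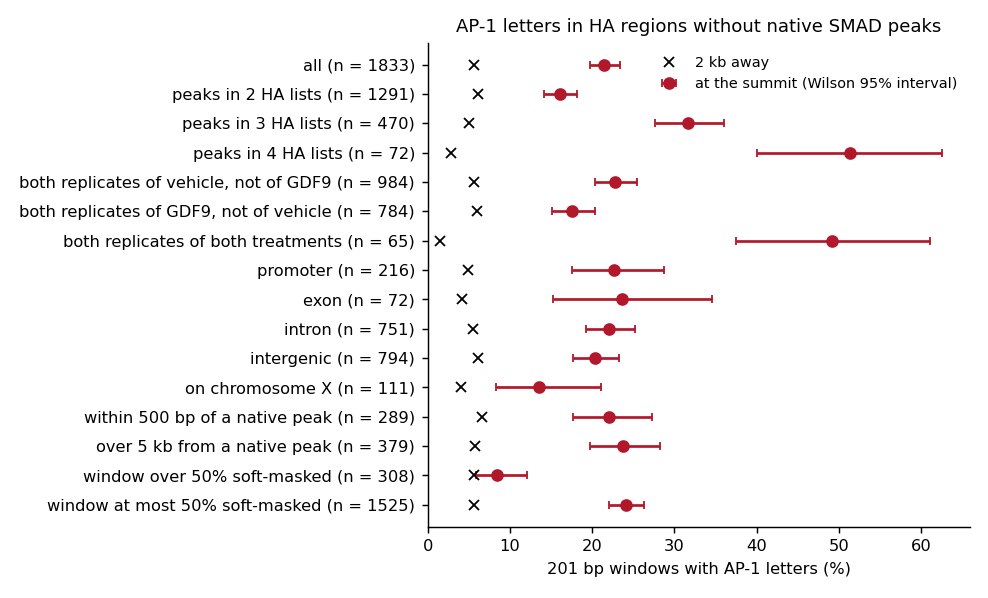
Share (%, x axis) of HA-only windows with AP-1 letters in subsets of the regions (y axis, with their number). Circles with bars are shares at the summit with Wilson 95% intervals and crosses the shares 2 kb away. Regions with peaks in 4 HA lists (51.4%) and in both treatments (49.2%) lie highest, soft-masked windows (8.44%) lowest.

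Windows with AP-1 letters lay under H3K27ac peaks more often. In the other line 17.0, 19.3, 20.6 and 19.3% of the 394 windows with the letters lay under H3K27ac (GDF9 replicates 1 and 2, vehicle replicates 1 and 2), against 8.9, 8.9, 9.8 and 11.5% of the 1439 without. At 10 kb the mean levels were 10.1 and 9.44%. In their own line the shares were 42.6 to 44.9% with and 35.0 to 37.2% without, higher in 4 of 4 lists. Most of this own-line difference was present 10 kb away, where the mean levels were 40% with and 34.3% without the letters, against 44.1 and 36.1% at the summits. For SMAD4 they were higher with the letters in 4 of 4 lists too (mean 7.17 against 5.52%). For SMAD2 (2 of 4 lists) and PA (1 of 4) they were not ordered. HA-only regions with the letters had taller HA peaks (the median best percentile was 41.1 without them), and the part of height in these differences was not tested.

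H3K27ac signal was compared between treatments in 7721 regions of *Smad2*HA/+ cells with a peak in all 4 H3K27ac lists. Of these, 669 contained 743 HA-only windows (40.5% of all HA-only regions), and 637 of the 669 also held other HA regions. Among them 2 were called higher with GDF9 and 0 lower (limma, adjusted p under 0.05), against 0.699% called higher and 0.0259% lower of all regions tested. The median log2 fold change was 0.10 in the 669 and 0.09 in all. A domain of 140070 bp on chromosome 16 with an HA-only region 3830 bp from the start of *Pla1a* had a maximum H3K27ac signal of 37.7 and 36.0 with vehicle and 62.2 and 55.8 with GDF9 (log2 fold change 0.68, SE 0.11, adjusted p = 0.0017). The second, of 131491 bp on chromosome 9 with an HA-only region 12384 bp from the start of *Cwf19l2*, had 30.6 and 30.5 against 47.1 and 39.3 (0.49, SE 0.12, adjusted p = 0.0497). In both the GDF9 libraries lay above the vehicle libraries, on the same values that gave the calls. These domains held 9 and 4 HA regions, of which 1 each was HA-only, and the maximum need not lie at it. No HA-only domain was called without GDF9 replicate 1 or without GDF9 replicate 2, and 6 and 3 were called without vehicle replicates 1 and 2.

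Genes with an HA-only region at the promoter were few. Counting coding and noncoding genes, 331 HA-only regions (18.1%) lay within 3 kb of a start site of 367 genes, of which 217 had RNA values and 165 were tested. Of the 165, 133 had another HA region at the promoter as well. With GDF9, 8 of the 165 were called higher (4.85%) and 1 lower (0.606%) by limma, where a call needed an adjusted p of less than 0.05 and a change of more than 0.18 on the log2 scale. Over all 12597 tested genes 2.44% were called higher and 0.707% lower. The median log2 fold change was 0.01 in the 165 and −0.01 in all. RNA and HA peaks come from different lines, bulk RNA cannot tell fewer cells from less RNA per cell, and the p-values measure the spread between 2 libraries per group. Over all 12597 tested genes, 1.31% had an HA-only region within 3 kb of a start site, and the counts in the lists are read against that share. Of the 15 gene lists, 14 had no member with an HA-only region at its promoter, among them the TGF-beta family ligands and receptors (0 of 24), SMADs, cofactors and feedback genes (0 of 26), granulosa markers (0 of 17), cumulus expansion and ovulation genes (0 of 20), steroid synthesis genes (0 of 18) and immediate early genes (0 of 22). Other HA regions lay at the promoters of 17, 24, 12, 12, 14 and 22 of these.

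The extracellular matrix list had 2 of 25, *Col4a3* and *Col4a4*, neighbouring genes for collagen IV chains of the basement membrane. The same HA-only region, present in the GDF9 lists alone, lay 2343 and 2470 bp from their start sites and was the sole HA region at their promoters. *Col4a4* had 2463 and 2334 normalized counts with vehicle and 2723 and 2840 with GDF9, both higher (log2 fold change 0.21, SE 0.04, limma adjusted p = 0.00255). *Col4a3* had 3486 and 3433 against 4027 and 3768, which passed the p limit and not the fold limit (0.17, SE 0.04, adjusted p = 0.0113). The whole list had 3 genes called higher and 2 lower of 25 tested. *Col4a4* lost its call without vehicle replicate 2 (0.17, adjusted p = 0.129).

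*Spon1*, which encodes the extracellular protein F-spondin, changed most among the called genes. It had 110 and 103 normalized counts with vehicle and 177 and 175 with GDF9 (log2 fold change 0.72, SE 0.13, limma adjusted p = 0.000425). Its HA-only region, on chromosome 7 at 113762027 to 113765276, was weak, with peaks in 2 HA lists and a lowest percentile of 1.73. The region lay under H3K27ac in 0 lists of either line. It held AP-1 letters, lay 22217 bp from the nearest native peak and was the sole HA region at the promoter. *Slc4a3*, an anion exchanger gene whose start site was 7 bp from the HA summit, also had no other HA region there. It rose from 558 and 580 to 795 and 721 (0.41, adjusted p = 0.000116). For both genes the treatments did not overlap, which adds nothing to the calls, as the same values gave them.

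The other called genes shared their promoters with HA regions that met native peaks. *Prex1*, an activator of Rac GTPases, had 121 and 128 against 196 and 209 normalized counts (log2 fold change 0.70). *Syne2*, the gene of the nuclear envelope protein nesprin-2, had 10692 and 9883 against 14395 and 13620 (0.45, limma adjusted p = 4.72e-10). *Limk2*, a kinase gene of actin turnover, had 1811 and 1848 against 2324 and 2226 (0.31), and *Ubn2*, a gene of a histone chaperone complex, had 776 and 736 against 980 and 893 (0.31). Each of these 4 was higher in both GDF9 libraries, on the same values that gave the calls. *Clasrp*, a splicing regulator gene, rose from 233 and 260 to 328 and 337 (0.43). *Nipa2*, a magnesium transporter gene, was the gene that fell, from 649 and 545 to 477 and 490 (−0.30). Leaving out vehicle replicate 1 ended the calls of *Clasrp* (0.36, adjusted p = 0.105) and *Nipa2* (−0.17, 0.537), and leaving out vehicle replicate 2 that of *Ubn2* (0.27, 0.0513), so 5 of the 9 kept their calls in all 4 such fits. At the 9 genes the HA-only region lay under H3K27ac in 3 or 4 lists of its own line for 8 and in no list of the other line for 6. For all 216 HA-only regions at coding promoters, the mean share per list was 64.8% in the own line and 21.9% in the other. Whether the 9 differ from these was not tested. Both GDF9 replicates defined it for 5 genes and both vehicle replicates for 4, and for *Syne2*, *Prex1* and *Slc4a3* 1 library of the other treatment also had a peak.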

How the data were processed

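HA, native SMAD2 and SMAD3 and H3K27ac peaks of *Smad2*HA/+ granulosa cells and SMAD2, PA, SMAD4 and H3K27ac peaks of *Smad3*PA/PA cells (32 lists) were used with RNA values of the latter. The authors mapped CUT&RUN reads to mm10 with Bowtie2, scaled the coverage by spike-in *E. coli* reads and called peaks with SEACR, and the deposited lists give each peak's total and maximum signal. Use of IgG as peak control is not given in the sources used here. For RNA, the reads were aligned with STAR 2.7.11b, counted with featureCounts 2.1.1 and normalized with DESeq2 1.48.2 by the authors, and the deposited signal values are normalized counts. The authors' mean column was not used.

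Members and lists of genes and motifs were chosen with earlier results of these data known. Overlaps (at least 1 bp, chromosomes 1 to 19, X and Y, distances counting 1 for adjoining intervals), windows and motifs were computed in Python 3.11.15 (pandas 2.3.3, scipy 1.17.1) on GRCm38.p6 with GENCODE vM21 and drawn with matplotlib 3.10.9. Signal (log2 maximum) and RNA (log2(value + 1), mean at least 10, 12597 of 25865 genes with values) were fitted in R 4.3.3 with limma 3.58.1 (trend, no covariates, Benjamini-Hochberg over all features), and edgeR and DESeq2 on recovered whole reads (100% whole within 0.05) were alternatives. The code was tested on simulated data. Regions named were the 10 with peaks in all 4 HA lists and the highest lowest percentile, and the top 3 of each treatment alone, chromosome 18 left out. Genes named were list members and called genes with a member within 3 kb of a start site. Replicates came from the titles. Same-numbered libraries did not deviate together (correlation 0.0728 for HA, 0.0324 for H3K27ac, 0.00502 for RNA).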

Additional observations from a re-analysis of the deposited data

How the results depend on the processing

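The peak lists carry no read depth, and p-values rest on 2 libraries per group. The number of HA-only regions, 1833, was 755 with the top 50% of each list, 1131 when HA replicates shared 50% of both peaks and 7825 when native regions needed both replicates. It was 28533 and 35151 when HA peaks of replicate 2 or replicate 1 alone were used, and 2067 to 2348 when 1 native list was left out. Of the 755, 310 met an HA-only region as defined.

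With the top 50% of each list, the mean share of HA-only windows was 27% for H3K27ac in *Smad2*HA/+ cells and 4.51% in *Smad3*PA/PA cells, 1.49% for PA and 4.56% for SMAD4. With whole regions it was 13.8% for H3K27ac in *Smad3*PA/PA cells, 7.77% for PA, 6.96% for SMAD2 and 12.3% for SMAD4. Promoters of 1 kb held 4.53% of HA-only regions and 3 called genes. In windows of 200 bp to either side, AP-1 letters were in 27.8% (11.1% 2 kb away), NR5A letters in 4.75% and SMAD core letters in 95.7%. Some subsets were added after seeing the data. Regions over 500 bp from a native peak had 36.3% at H3K27ac of their own line. Those with peaks in 3 or 4 HA lists had 48.8% there, 19.8% in the other line, 8.3% at SMAD4 and 34.3% with AP-1 letters. Those without AP-1 letters had 36.1% and 9.78% at H3K27ac of the own and the other line, and windows at most 50% soft-masked had AP-1 letters in 24.1%.

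With the replicate number as a block (replicate block), 3 HA regions were called and 0 HA-only, 439 H3K27ac regions (425 higher, 14 lower) with 34 at HA-only regions, and 10 genes with an HA-only region. Same-numbered libraries share a number only. No H3K27ac region was called on total signal, by limma, where 780 had an unadjusted p under 0.05, and 8 on centred libraries, 1 of them with an HA-only region. Leaving out 1 library gave 1 to 4390 HA calls (0 to 9 of the HA-only regions), 0 to 117 H3K27ac calls (0 to 6), and 215 to 583 RNA calls against 396. Without the filter on low values 187 genes were called and with DESeq2 133, of which 5 had an HA-only region. DESeq2 gave no adjusted p for *Spon1*, *Prex1* and *Clasrp*, and the cause was not tested. The direction of all 9 called genes was the same in every fit. Each fit used all or most of the libraries that gave the calls, so this agreement was largely set in advance.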
